A study of Mus musculus with 8 samples.

Results

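The 9 genes described here encode enzymes or enzyme subunits of the tricarboxylic acid (TCA) cycle in the mitochondrial matrix: Cs, Idh2, Idh3a, Idh3b, Ogdh, Dlst, Sucla2, Fh1 and Mdh2. They were chosen by gene symbol from the 55401 genes of the deposited table, and each symbol named 1 row. Kidney RNA was sequenced from 8 diabetic male mice with 1 library per mouse, 4 treated with rFGF4, a recombinant fibroblast growth factor 4, and 4 given vehicle (PBS). The labels and the design text give db/db animals for both groups (C57BLKS/J, homozygous for a leptin receptor mutation, so that they become obese and diabetic), whereas the paper names streptozotocin-induced diabetes for the sequenced mice, and the files do not settle the model. The paper describes injections of 1 mg/kg rFGF4 into the peritoneum on alternate days over 8 weeks, begun in db/db animals aged 12 weeks. The libraries are called by the mouse numbers of their labels, rFGF4 mice 1, 2, 3 and 5 and vehicle mice 2, 3, 4 and 5. No non-diabetic kidney is part of the comparison, which asks how the kidney transcriptome of diabetic mice differs with rFGF4.

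The TCA cycle oxidises the acetyl group of acetyl-CoA, made from pyruvate, fatty acids and amino acids, and passes the electrons on to the respiratory chain as NADH and reduced flavin. Citrate synthase (Cs) starts it, the isocitrate dehydrogenases (Idh2 and the complex that holds Idh3a and Idh3b) and the 2-oxoglutarate dehydrogenase complex (Ogdh and Dlst) carry out the oxidative decarboxylations, succinyl-CoA synthetase (Sucla2) forms ATP, and fumarase (Fh1) and malate dehydrogenase (Mdh2) return the carbon to oxaloacetate. In the kidney the cycle is most active in the proximal tubule, a segment packed with mitochondria that relies on oxidation rather than on glycolysis and that also makes glucose from lactate and glutamine.

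The promoters of 4 of the genes are shown because they belong to the partners of 1 enzyme complex that were closest to and farthest from the other members across these libraries (Ogdh and Dlst), to the enzyme that opens the cycle (Cs) and to the most abundant member (Idh2). Each window runs from 250 bases before to 50 bases after a RefSeq transcription start on GRCm38.p6, 5′ to 3′ on the strand of the gene. Capitals mark the matches on either strand to the CCAAT box (its own letters), the GC box (GGGCGG) and the core bound by ETS factors such as GABPA (CCGGAAGT), and in the Dlst window 2 GC box matches overlap each other.
Ogdh, chr11:6291347-6291646, + strand: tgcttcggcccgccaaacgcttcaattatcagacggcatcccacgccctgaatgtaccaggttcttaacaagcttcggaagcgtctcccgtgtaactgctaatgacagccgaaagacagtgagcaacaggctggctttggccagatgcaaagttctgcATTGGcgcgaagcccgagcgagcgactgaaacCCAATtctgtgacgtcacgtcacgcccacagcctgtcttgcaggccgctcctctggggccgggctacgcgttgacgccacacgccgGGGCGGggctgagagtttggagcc
Dlst, chr12:85110583-85110882, + strand: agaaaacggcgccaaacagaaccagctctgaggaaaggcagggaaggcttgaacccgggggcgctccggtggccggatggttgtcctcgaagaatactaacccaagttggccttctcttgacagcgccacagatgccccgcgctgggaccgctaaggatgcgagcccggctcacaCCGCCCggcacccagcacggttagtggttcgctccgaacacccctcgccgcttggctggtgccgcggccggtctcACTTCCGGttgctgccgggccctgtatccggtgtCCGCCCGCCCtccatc
Cs, chr10:128337477-128337776, + strand: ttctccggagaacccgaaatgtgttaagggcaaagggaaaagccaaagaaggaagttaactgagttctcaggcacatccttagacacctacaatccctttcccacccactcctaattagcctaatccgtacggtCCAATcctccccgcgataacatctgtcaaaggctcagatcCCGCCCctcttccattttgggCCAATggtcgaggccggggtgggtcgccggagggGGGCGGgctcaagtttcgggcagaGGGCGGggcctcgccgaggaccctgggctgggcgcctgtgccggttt
Idh2, chr7:80115301-80115600, - strand: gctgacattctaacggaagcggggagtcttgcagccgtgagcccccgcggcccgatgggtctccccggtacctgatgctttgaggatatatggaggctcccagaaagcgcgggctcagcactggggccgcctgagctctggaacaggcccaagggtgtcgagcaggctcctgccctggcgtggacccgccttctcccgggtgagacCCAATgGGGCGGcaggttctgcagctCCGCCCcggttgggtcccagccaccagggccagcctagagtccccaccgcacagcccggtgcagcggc
The 4 windows held 58.7% to 68.3% G and C, against a median of 52.7% in 32851 promoter windows of the same length. RefSeq windows were found for 8 of the 9 genes, 13 windows in all, with 6 for Ogdh, and none was listed for Idh3a. Over the 13 windows the share of G and C ran from 49.3% to 72.3%. The window of Idh3b (50.3%) and 2 windows of Ogdh (50.3% and 49.3%) were below that median. A CCAAT box stood in windows of 5 genes (Cs, Fh1, Idh2, Idh3b and Ogdh) and in 37.4% of all windows, and a GC box in windows of 7 genes and in 35.7% of all. The ETS letters were found in Dlst alone, where they begin at the transcription start itself, and in 3.89% of all windows. The letters GCGCANGCG, bound by NRF1, were found in Sucla2 and at 1 site of Ogdh that lies in 2 further, overlapping windows. They were found in 6.25% of all windows. The letters TCAAGGTCA (bound by ESRRA, 0.423% of all windows), GTAAACA (FOXO, 3.65%) and AAGATGGCG (YY1, 1.4%) were in none of the 13 windows.

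Levels are given as FPKM, fragments mapped to a gene relative to its transcript length and to the size of the library, as deposited by the authors, so that levels can be set side by side between genes. The file holds no read counts, and the depth behind each value is unknown. rFGF4 mouse 1 and vehicle mouse 5 stood apart from the other 6 libraries on the first principal component of the tested genes (54.4% of the variance; 0.56 and 0.52, against -0.38 to 0.14). All 9 genes were well expressed, with means over the 8 libraries from 19.6 FPKM for Dlst to 139 FPKM for Idh2, above 85.3% and 98.1% of the 15150 genes tested. By mean FPKM the order was Idh2, Ogdh, Mdh2, Idh3b, Fh1, Cs, Idh3a, Sucla2 and Dlst. Within libraries, 3 steps of this order were larger than their SD and held in 8 of 8 libraries: Mdh2 over Idh3b (log2 difference 0.77 ± 0.14, SD, n = 8), Idh3b over Fh1 (0.50 ± 0.20, SD, n = 8) and Cs over Idh3a (0.71 ± 0.14, SD, n = 8). Idh2 and Ogdh, Ogdh and Mdh2, Fh1 and Cs, Idh3a and Sucla2, and Sucla2 and Dlst did not differ beyond that spread. The order of the means was alike in the groups, except that Ogdh and Mdh2, and Idh3a and Sucla2, changed places.

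**Figure D1:**
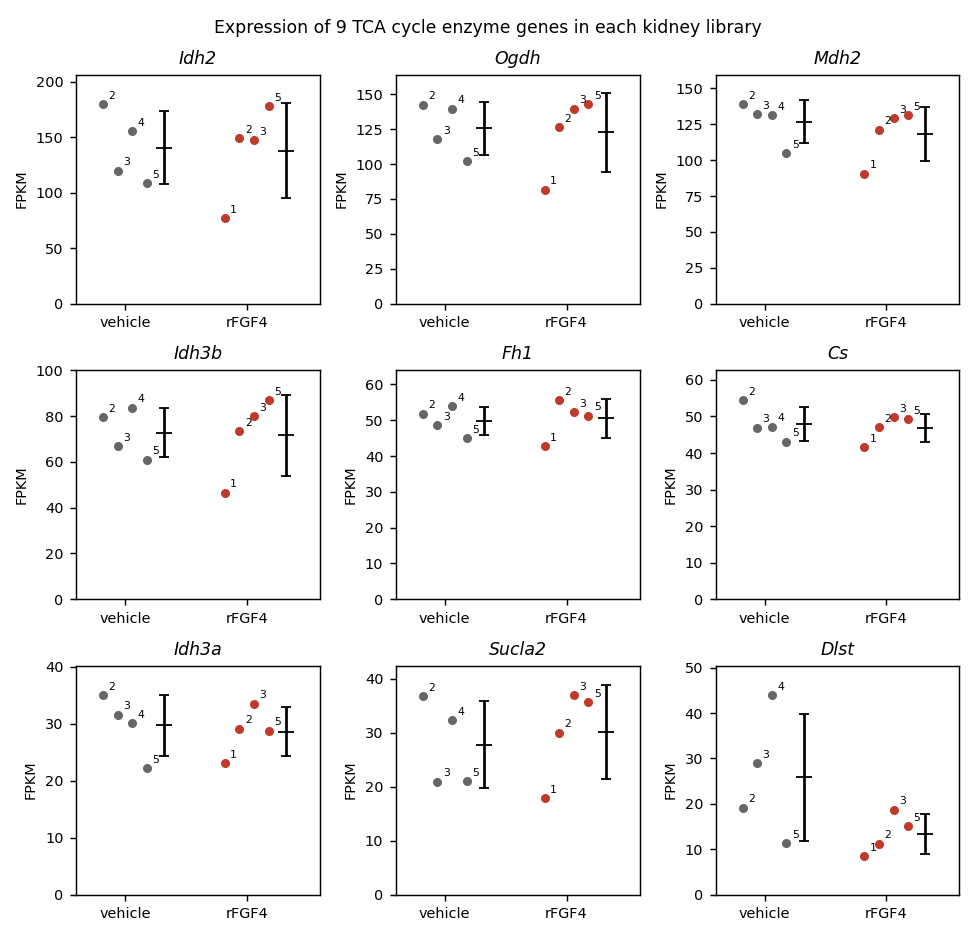
FPKM (vertical axis, from 0) of the 9 TCA cycle genes in the 4 vehicle libraries (grey) and the 4 rFGF4 libraries (red), numbered by mouse, with the mean and SD of each group in black. The groups overlap for each gene, rFGF4 mouse 1 is lowest in 8 of the 9 panels, and the Dlst values of vehicle mice 2, 3 and 4 lie above those of the rFGF4 group.

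None of the 9 genes passed the study's threshold (a 1.5-fold difference or more, together with p below 0.05 before adjustment) in a limma fit of log2(FPKM + 1) over all 15150 tested genes. This threshold was passed by 231 of these genes (1.52%), 165 of them higher (1.09%) and 66 lower (0.436%) with rFGF4, and beside so small a share 0 of 9 is no result about these genes. An unadjusted p under 0.05 alone was reached by 0 of the 9 and by 700 genes (4.62%), and an adjusted p under 0.05 by 0 of the 9 and by 0 genes in all. The groups overlapped for 9 of 9 genes, where 504 genes (3.33%) did not overlap. The log2 fold change (rFGF4 minus vehicle) was below 0 for 7 of the 9, against 4986 genes (32.9%), and it was below the median of all tested genes for 8 of the 9; scaling to a common median ratio gave 9 of 9 below 0, and rescaling without the genes of the mitochondrial DNA gave 2 of 9. Those scalings moved the median of all tested genes from 0.09 to -0.01 and 0.19, and 9 and 8 of the 9 genes lay below it. The median over the 9 genes was -0.05. Without rFGF4 mouse 1 the number of genes below 0 was 1 of 9 and the number below the median of all tested genes (0.01) also 1 of 9. The number below 0 was 2 of 9 without vehicle mouse 2, where 7 of 9 were below the median (0.06), and 4 of 9 without both rFGF4 mouse 1 and vehicle mouse 5, where 7 of 9 were below the median (0.07) and 1 passed the threshold (Dlst), as did 273 of the 15150 tested genes.

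**Figure D2:**
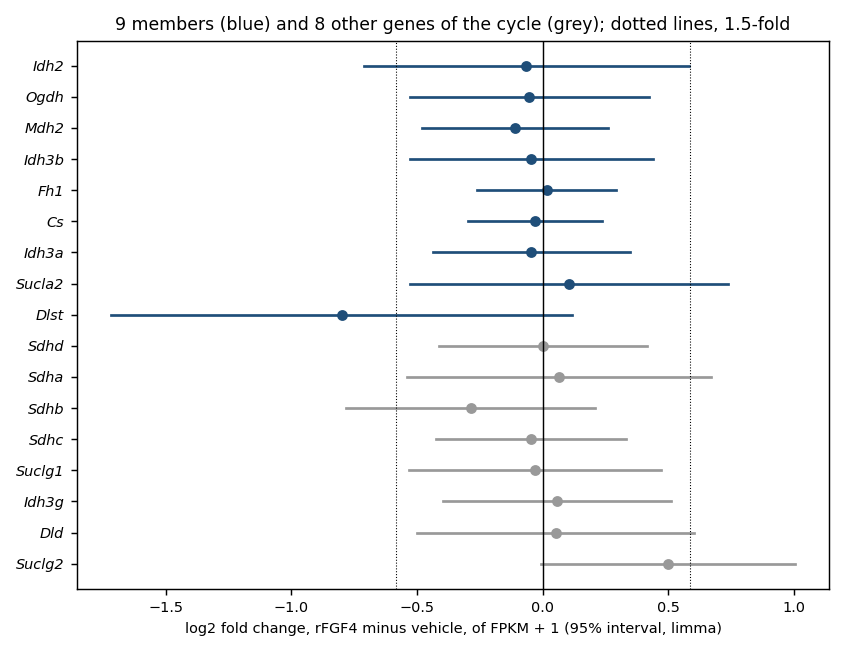
Log2 fold change of FPKM + 1 (rFGF4 minus vehicle, horizontal axis) with its 95% interval from limma, for the 9 genes (blue) and 8 other genes of the cycle (grey), each set ordered by mean FPKM; dotted lines mark 1.5-fold. Each interval includes 0, Dlst has the lowest estimate (-0.80) and Suclg2 the highest (0.50).

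Cs, the citrate synthase gene (chr10:128337734-128362479, + strand, GRCm38, protein-coding), had 41.5, 47.0, 49.8 and 49.2 FPKM in rFGF4 mice 1, 2, 3 and 5 and 54.5, 46.9, 47.2 and 43.1 FPKM in vehicle mice 2, 3, 4 and 5. It was one of the steadiest of the 9 genes, with a highest value 1.31 times the lowest. The group means were 46.9 ± 3.77 and 47.9 ± 4.77 FPKM (SD, n = 4), and the log2 fold change was -0.03 with a 95% interval from -0.30 to 0.24 (limma, adjusted p = 0.98; exact permutation p = 0.83, two-sided).

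The isocitrate dehydrogenases act on the same substrate with different cofactors. Idh2 (chr7:80094846-80115392, - strand), which makes NADPH in the matrix and so feeds the reduction of glutathione and thioredoxin, had 77.1, 149, 148 and 178 FPKM in the rFGF4 mice and 180, 120, 155 and 108 FPKM in the vehicle mice. The lowest value, in rFGF4 mouse 1, was well under the next rFGF4 value, and the other 3 rFGF4 values lay inside the vehicle range. The log2 fold change was -0.07 (95% interval -0.71 to 0.58; exact permutation p = 0.857), an interval that spans a 1.5-fold difference in the downward direction. Idh3a (chr9:54586334-54604661, + strand), the catalytic subunit of the NAD-dependent enzyme, had 23.1, 29.2, 33.5 and 28.8 FPKM with rFGF4 and 35.0, 31.6, 30.1 and 22.2 FPKM with vehicle. It was the only member whose lowest library was vehicle mouse 5, with rFGF4 mouse 1 next. Its log2 fold change was -0.04 (95% interval -0.43 to 0.35; exact permutation p = 0.743). Idh3b (chr2:130279309-130284547, - strand), a structural subunit of the same complex, had 46.5, 73.4, 79.9 and 87.0 FPKM with rFGF4 and 79.4, 66.8, 83.7 and 60.9 FPKM with vehicle. The rFGF4 group held both its lowest and its highest value, and the log2 fold change was -0.05 (95% interval -0.53 to 0.44; exact permutation p = 0.886). Exons of Idh3b overlap those of Nop56, a nucleolar protein gene on the opposite strand with a mean of 5.58 FPKM; counting by strand is not given in the sources used here, and reads of the overlap cannot be told apart.

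The 2-oxoglutarate dehydrogenase complex is built from a decarboxylase (Ogdh), a lipoyl-bearing succinyltransferase (Dlst) and a dihydrolipoamide dehydrogenase (Dld) that other complexes share. Ogdh (chr11:6291633-6356642, + strand) had 81.7, 126, 140 and 143 FPKM with rFGF4 and 142, 118, 139 and 102 FPKM with vehicle. Apart from rFGF4 mouse 1 the rFGF4 values lay within or just above the vehicle range, and the log2 fold change was -0.05 (95% interval -0.53 to 0.42; exact permutation p = 0.857). Dlst (chr12:85110833-85134845, + strand) had 8.44, 11.2, 18.7 and 15.1 FPKM with rFGF4 and 19.2, 29.0, 43.9 and 11.4 FPKM with vehicle. Vehicle mice 2, 3 and 4 were above every rFGF4 mouse, and vehicle mouse 5 fell between rFGF4 mice 2 and 5. The means were 13.4 ± 4.50 and 25.8 ± 14.0 FPKM (SD, n = 4), a ratio of fitted values of 0.574 with a 95% interval from 0.304 to 1.08. The log2 fold change of Dlst was -0.80 (SE 0.40), with p = 0.0792 and an adjusted p = 0.918 in limma and p = 0.114 in the two-sided exact permutation test, whose smallest p for 4 mice against 4 is 0.0286. Dlst had the largest estimated difference of the 9 genes and also the widest spread, its highest value being 5.20 times its lowest. Its estimate stayed below 0, between -1.12 and -0.32, in 14 of 14 other settings, which reuse the same mice and are not independent. It passed the study's threshold in 2 of them, without vehicle mouse 5 (log2 fold change -1.12, limma adjusted p = 0.620) and without both rFGF4 mouse 1 and vehicle mouse 5 (-0.94, limma adjusted p = 0.753), the latter chosen after the data were seen. In these settings 432 and 273 of the 15150 tested genes passed, against 231 with all mice. Without vehicle mouse 4, the highest library, the estimate was -0.50.

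Sucla2 (chr14:73525319-73596142, + strand), the subunit that makes succinyl-CoA synthetase form ATP rather than GTP, had 17.8, 30.0, 36.9 and 35.7 FPKM with rFGF4 and 36.8, 20.9, 32.4 and 21.02 FPKM with vehicle. Its vehicle values fell into a high pair (mice 2 and 4) and a low pair (mice 3 and 5), and 3 of the 4 rFGF4 values lay near or between the high ones. It was one of 2 members with an estimate above 0, at 0.10 (95% interval -0.53 to 0.74; exact permutation p = 0.886). Fh1 (chr1:175600374-175625635, - strand), the fumarase gene, had 42.7, 55.7, 52.3 and 51.3 FPKM with rFGF4 and 51.8, 48.6, 54.0 and 45.0 FPKM with vehicle. It varied least of all 9 genes, by 1.304 times from lowest to highest, with a log2 fold change of 0.02 (95% interval -0.26 to 0.29; exact permutation p = 0.857). Mdh2 (chr5:135778480-135790398, + strand), the malate dehydrogenase of the matrix, had 90.5, 121, 129 and 131 FPKM with rFGF4 and 139, 132, 131 and 105 FPKM with vehicle. Vehicle mice 2, 3 and 4 were above every rFGF4 mouse, mice 3 and 4 by little, and vehicle mouse 5 was below rFGF4 mice 2, 3 and 5. The log2 fold change was -0.11 (95% interval -0.48 to 0.26; exact permutation p = 0.457). For Cs, Idh3a, Idh3b, Ogdh, Fh1 and Mdh2 the 95% interval lay inside a 1.5-fold difference in both directions, and for Idh2, Dlst and Sucla2 it did not.

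A ratio of FPKM between genes of 1 library does not depend on how that library was scaled, and 9 such ratios were compared. None of the 9 separated the groups, and the smallest p adjusted over the 9 was 0.514 (Benjamini-Hochberg adjustment of the exact permutation p). The smallest single p was that of Ogdh to Dlst, the partners of 1 complex: the ratio was 9.69, 11.3, 7.45 and 9.46 in the rFGF4 mice and 7.42, 4.07, 3.18 and 8.95 in the vehicle mice. Vehicle mice 2, 3 and 4 were below all 4 rFGF4 mice, although vehicle mouse 2 only just, and vehicle mouse 5 was inside the rFGF4 range. The log2 difference was 0.79 (exact permutation p = 0.0571, two-sided). Ogdh to Dld, by contrast in size, stayed between 2.05 and 2.77 in all 8 libraries, with a log2 difference of -0.11 (exact permutation p = 0.371). Within the NAD-dependent isocitrate dehydrogenase, Idh3a to Idh3b was 0.411 ± 0.0685 with rFGF4 and 0.410 ± 0.0561 with vehicle (SD, n = 4; exact permutation p = 1), and Idh3a to Idh3g was 0.502 ± 0.0699 and 0.537 ± 0.0408 (SD, n = 4; exact permutation p = 0.400).

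Sucla2 to Suclg2, the ATP-forming against the GTP-forming subunit, was 0.446 in rFGF4 mouse 1 and between 0.907 and 1.16 in the 7 other libraries (log2 difference -0.41, exact permutation p = 0.171). Without rFGF4 mouse 1 the log2 difference was -0.12, and without vehicle mouse 5 as well it was -0.11. Against Suclg1, the subunit that both forms share, Sucla2 stood at 0.446 in the same mouse, inside the range of 0.369 to 0.562 of the 7 others. Suclg2 itself, at 40.0 FPKM, was at its second highest level there, while Sucla2 was at its lowest. Idh2 to Idh1, the mitochondrial against the cytosolic NADP enzyme, had the widest range of the 9 ratios, 3.75 times from lowest to highest. It was 0.398, 0.646, 1.19 and 1.13 with rFGF4 and 1.03, 0.813, 0.853 and 1.49 with vehicle (log2 difference -0.41, exact permutation p = 0.429). The log2 difference was -0.09 without rFGF4 mouse 1 and 0.09 without vehicle mouse 5 as well. Mdh2 to Mdh1 ran from 0.332 to 0.835 with rFGF4 and from 0.346 to 0.691 with vehicle (exact permutation p = 0.629). Idh2 to Idh3a had a log2 difference of -0.02 (exact permutation p = 0.943).

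**Figure D3:**
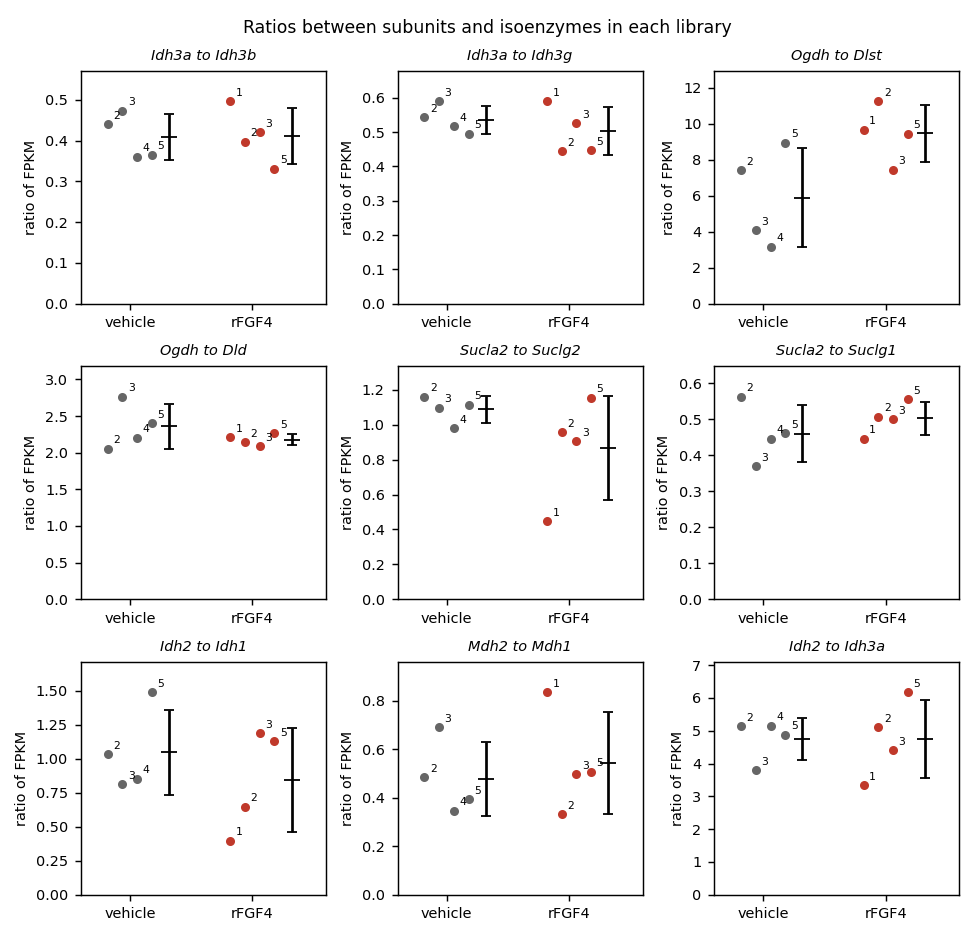
Ratio of the FPKM of 2 genes within a library (vertical axis, from 0) for 9 pairs of subunits or isoenzymes, in vehicle (grey) and rFGF4 libraries (red), numbered by mouse, with the mean and SD of each group. Ogdh to Dlst is 7.45 or more in the rFGF4 mice and 3.18 to 8.95 in the vehicle mice, and Sucla2 to Suclg2 is lowest in rFGF4 mouse 1.

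The summed level of the 9 genes was 429, 643, 688 and 719 FPKM in rFGF4 mice 1, 2, 3 and 5 and 737, 614, 717 and 519 FPKM in vehicle mice 2, 3, 4 and 5. The means, 620 ± 131 and 647 ± 101 FPKM (SD, n = 4), differed by less than the spread between mice of either group. rFGF4 mouse 1 was the lowest library for 8 of the 9 genes, and vehicle mouse 5 was among the 2 lowest for 7 of the 9. The deviation from a gene's own mean, averaged over the 9 genes, was -0.52 on the log2 scale in rFGF4 mouse 1 and -0.29 in vehicle mouse 5, and from -0.01 to 0.27 in the other 6 libraries. Without Dlst these values were -0.47, -0.25 and from -0.06 to 0.24. The median deviation over all tested genes had the opposite sign in both libraries, at 0.28 in rFGF4 mouse 1 and 0.11 in vehicle mouse 5, and ran from -0.12 to 0.07 in the other 6.

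**Figure D4:**
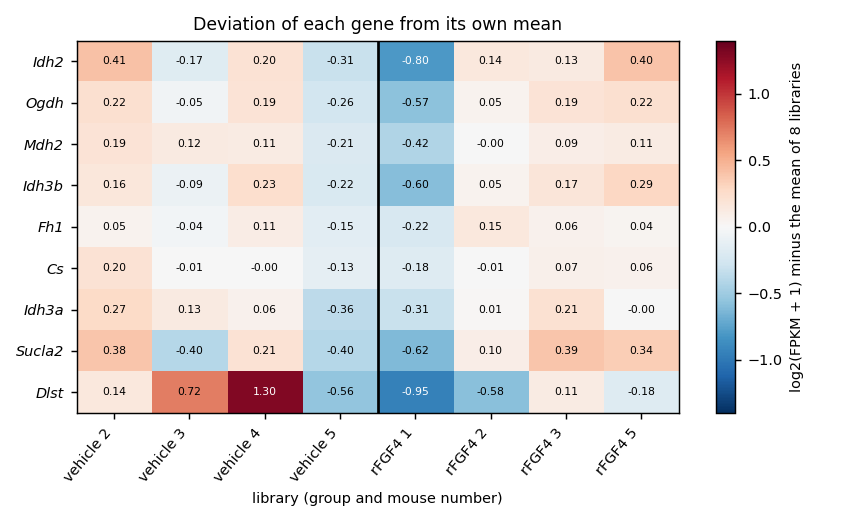
Deviation of log2(FPKM + 1) of each gene (rows, ordered by mean FPKM) from its mean over the 8 libraries (columns, vehicle left of the line and rFGF4 right). Most rows are lowest in rFGF4 mouse 1 and low in vehicle mouse 5, while Dlst is highest in vehicle mouse 4 (1.298) and vehicle mouse 3 (0.72).

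Cell type markers differed in the same libraries. The summed level of 12 proximal tubule markers was 2993 FPKM in rFGF4 mouse 1, where each of the 12 was at its lowest, and from 6609 to 11773 FPKM in the other 7 libraries. The 9 genes amounted to 14.3% of that marker sum in rFGF4 mouse 1 and to between 6.03% and 8.97% in the others. Relative to the vehicle mean, the markers stood at 0.326 and the 9 genes at 0.664 in that library. The summed level of 6 macrophage markers was 498 FPKM in rFGF4 mouse 1 and 534 FPKM in vehicle mouse 5, against 29.0 to 213 FPKM elsewhere, and that of 7 B and plasma cell markers reached 22929 FPKM in vehicle mouse 5. The 5 red blood cell markers summed to 120, 1556, 437 and 2657 FPKM in rFGF4 mice 1, 2, 3 and 5 and to 3793, 4325, 2700 and 1139 FPKM in vehicle mice 2, 3, 4 and 5. In this sum vehicle mice 2, 3 and 4 were above every rFGF4 mouse, mouse 4 only just, and vehicle mouse 5 was not. Hba-a2 and Alas2 did not keep that order. They had 811.1 and 8.86 FPKM in rFGF4 mouse 5, against 810.9 and 7.99 FPKM in vehicle mouse 4. The 5 red blood cell genes all had estimates below 0, with a median of -1.97, and 0 of the 5 passed the study's threshold or an unadjusted p under 0.05 in limma. None of the 12 proximal tubule and 6 macrophage markers passed the study's threshold; of the other marker lists 1 of 5 distal convoluted tubule genes (Emx1, lower) and 1 of 7 podocyte genes (Synpo, higher) did, and none elsewhere, beside 0.436% of all tested genes lower and 1.09% higher. Genes of the mitochondrial DNA took up 19.0% of all FPKM in rFGF4 mouse 1, 24.4% in vehicle mouse 5 and 24.7% to 38.4% in the others. The part of these differences in the levels of the 9 genes was not tested, and in bulk tissue fewer proximal tubule cells and less RNA of the cycle per cell cannot be told apart. An extraction note in the labels mentions a fat type, but the 6 fat and 3 brown fat markers summed to at most 0.688 and 0.227 FPKM, and none was high enough to be tested. Relative depth, read from the FPKM ratios that genes of low expression share, lay between 0.905 and 1.12 times that of vehicle mouse 2.

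**Figure D5:**
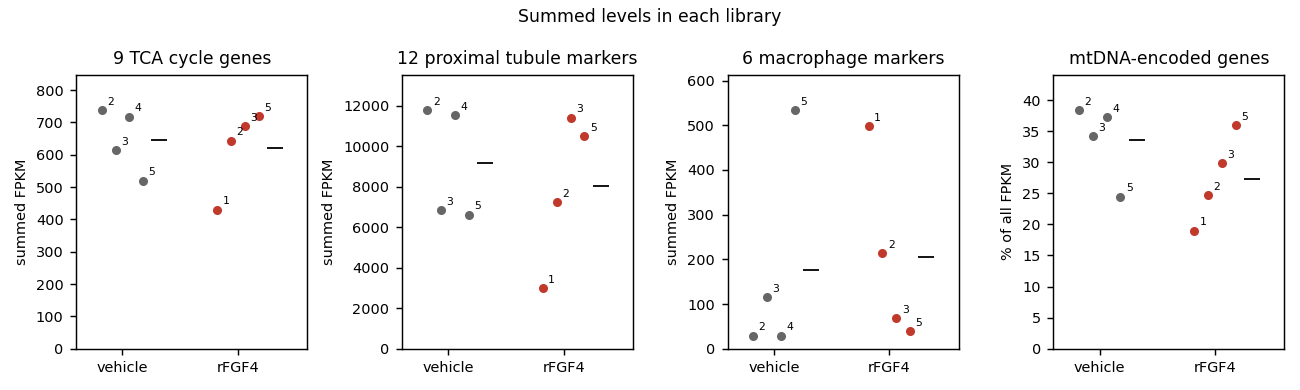
Summed FPKM of the 9 TCA cycle genes, of 12 proximal tubule markers and of 6 macrophage markers, and the share of all FPKM from genes of the mitochondrial DNA, in each library (grey, vehicle; red, rFGF4; numbered by mouse; the dash is the group mean). rFGF4 mouse 1 is lowest for the TCA cycle genes (429), the tubule markers (2993) and the mitochondrial share (19.0%), and with vehicle mouse 5 highest for the macrophage markers.

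The genes varied together across the 8 libraries to differing degrees, which is given as a description with no test. Pearson's r between a gene and the mean z-score of the other 8 genes was 0.985 for Ogdh, 0.95 for Mdh2 and Idh3b, 0.94 for Idh2, from 0.86 to 0.88 for Cs, Sucla2, Idh3a and Fh1, and 0.57 for Dlst. Without rFGF4 mouse 1 and vehicle mouse 5, the 2 libraries farthest from the median of the mean score, r was 0.91 for Ogdh, 0.75 for Sucla2 and from 0.51 to 0.73 for Cs, Idh2, Idh3b and Mdh2. It was 0.31 for Idh3a, 0.05 for Fh1 and -0.16 for Dlst over those 6 libraries. Ogdh was the gene closest to the others and Dlst, its partner in the complex, the farthest. Among 13189 other genes, 281 (2.13%) had an r above 0.9 with the mean z-score of the 9, and the median r was -0.59. The highest over the 8 libraries among these were those of Slc23a1, an ascorbate transporter (r = 0.996, and 0.978 without those 2 libraries), Tpi1, a glycolytic isomerase (0.994 and 0.987), Tmem116 (0.991 and 0.906), Ppa2, a mitochondrial pyrophosphatase (0.986 and 0.961), and Uqcrfs1, the Rieske iron-sulphur subunit of respiratory complex III (0.984 and 0.909). For Dlst alone, in a search made after its values were seen, the highest r was that of Esrra, a nuclear receptor of mitochondrial genes, at 0.959 over the 8 libraries, and those of Sigirr (0.949), Gm44202 (0.948), Sod3 (0.945) and Atp5mpl (0.943) were close to it. Esrra had 8.80, 11.9, 16.7 and 14.9 FPKM with rFGF4 and 14.8, 19.4, 23.1 and 13.3 FPKM with vehicle, with a log2 fold change of -0.41 (95% interval -0.95 to 0.12; limma adjusted p = 0.918).

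Of 8 further subunits (Idh3g, Dld, Suclg1, Suclg2 and the succinate dehydrogenase subunits Sdha, Sdhb, Sdhc and Sdhd), 0 passed the study's threshold or an unadjusted p under 0.05 in limma, 3 had an estimate below 0 and the median was 0.03, as against -0.05 for the 9 genes described here and 0.09 for all tested genes. Beside the shares over all tested genes (1.52% past the threshold, 4.62% with an unadjusted p under 0.05 and 32.9% below 0) these counts are no result about the 8 genes. The estimates ran from -0.29 for Sdhb, the iron-sulphur subunit of succinate dehydrogenase, to 0.50 for Suclg2, the GTP-forming partner of Suclg1. Suclg2 passed the threshold without vehicle mouse 2 (0.61), without vehicle mouse 4 (0.63) and after rescaling without the genes of the mitochondrial DNA (0.61). The summed level of the 9 described genes was 0.770 to 0.870 times that of these 8 in every library, rFGF4 mouse 1 (0.779) included. Of the citrate cycle set of the deposited KEGG annotation, 32 genes were used, all 9 described ones among them, and of the 29 tested 0 passed the threshold, 1 had an unadjusted p under 0.05, 12 were below 0 and Dlst had the lowest estimate; read against the same shares, these counts say nothing particular of the set.

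Around the cycle, 1 of 13 genes of pyruvate entry passed the threshold, which 1.52% of all tested genes passed; beside that share neither this count nor those of the lists that follow is a result about a list. This was Pdk4, a kinase that switches off pyruvate dehydrogenase and so the supply of acetyl-CoA from glucose, with 20.3, 30.8, 16.1 and 10.8 FPKM with rFGF4 and 3.13, 15.7, 8.82 and 4.86 FPKM with vehicle. rFGF4 mice 1, 2 and 3 were above every vehicle mouse, and rFGF4 mouse 5 was below vehicle mouse 3. The log2 fold change of Pdk4 was 1.28 (95% interval 0.22 to 2.33; limma p = 0.0232, adjusted p = 0.918; exact permutation p = 0.0571), and its call was lost without any one of rFGF4 mouse 1 (1.23, p = 0.0518 in limma), rFGF4 mouse 2 (1.04, p = 0.0641), vehicle mouse 2 (0.96, p = 0.0590) or vehicle mouse 5 (1.13, p = 0.0569). The Pdk4 call was also lost without both rFGF4 mouse 1 and vehicle mouse 5 (1.08, adjusted p = 0.753 in limma). Mpc2, a subunit of the mitochondrial pyruvate carrier, had the lowest estimate of that list (-0.24). Of 13 genes that fill or drain the cycle, 0 passed the threshold and 1 had an unadjusted p under 0.05 (Acly, the cytosolic enzyme that splits citrate, at 0.46, limma adjusted p = 0.918, named after its value was seen). That list ran from Got2, the mitochondrial aspartate aminotransferase (-0.15), to Pck1, the gluconeogenic enzyme that draws off oxaloacetate (0.59); without rFGF4 mouse 1, Pck1 was at 0.997 and passed the threshold (limma adjusted p = 0.9996), as it did without vehicle mouse 5 as well (0.97, limma adjusted p = 0.753). Of the 5 cytosolic counterparts 0 passed, from Mdh1 (-0.26) to Idh1 (0.34), and of the 2 tested paralogues 0, Dhtkd1 (0.00) and Ogdhl (0.19). Of 7 transcription factors and coactivators of mitochondrial genes 0 passed, from Esrra (-0.41) to Gabpa (0.14).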

How the data were processed

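Kidney poly(A) RNA of 8 mice was sequenced as paired-end libraries, 1 per mouse. The authors deposited FPKM per gene, calculated with StringTie 1.3.0; their processing notes also name HISAT2 2.0, Bowtie 0.12.2 and the mouse build mm8. The identifiers are those of a later annotation: 55141 of 55401 (99.5%) were found in GENCODE M21 on GRCm38, from which the gene positions were taken. A value of 0.0001, the most frequent one, was read as standing for 0. The deposited columns of the authors' own edgeR comparison (fold change, log2, p and q) were not used, and edgeR could not be run because the table holds no counts. Sequences came from RefSeq (GRCm38.p6).

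Groups were taken from the labels, 4 mice against 4. Genes with at least 0.5 FPKM in 4 or more libraries (15150) were compared as log2(FPKM + 1) in limma 3.58.1 (R 4.3.3), the prior variance following the mean level, with Benjamini-Hochberg adjustment over all of them. Fold changes are on this scale, which understates those of low genes. For single genes and ratios, exact permutation tests over mice, two-sided, were run as well. The fit was tested on simulated data in which genes varied independently of each other, which genes of real libraries need not do. Named are the 9 genes; in each list those past the threshold and the highest and lowest estimates; the 5 genes (mean at least 1 FPKM) most like the 9; and overlapping genes. The 9 genes, the lists and the markers were chosen with earlier results of these data known; the KEGG set and the comparison with Dlst were added after the values were seen. Shared mouse numbers were not taken as pairs. The p-values rest on the variation between these mice, and in limma also on a variance prior drawn from all tested genes. Alternatives were another pseudocount, no filter, other scalings, each mouse left out and a replicate block. Some results of the planned lists and ratios are not reported here.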

Additional observations from a re-analysis of the deposited data

How the results depend on the processing

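When single mice were left out, the genes past the study's threshold numbered 187 to 575 (231 with all mice; 575 without rFGF4 mouse 5 and 432 without vehicle mouse 5), and 0 to 1 of the 9 TCA cycle genes passed (Dlst, without vehicle mouse 5). The genes below 0 numbered 1 to 9 of the 9, and 0 to 2 genes of the other lists passed. A pseudocount of 0.1 gave 348 genes past the threshold, an unadjusted p under 0.05 alone 700 (2 of the other lists), rescaling without the genes of the mitochondrial DNA 459 (86.3% higher, against 71.4%; 2 of the 9 below 0 and 2 of the other lists passing), and a common median ratio 174 (53.4% higher). A count test could not be run, since the table holds no counts, and depth is unknown.

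Most estimates that changed sign were near 0. Over the left-out mice the log2 fold change ran from -0.078 to 0.033 for Cs, -0.21 to 0.19 for Idh2, -0.17 to 0.051 for Idh3a, -0.15 to 0.15 for Idh3b, -0.15 to 0.13 for Ogdh, -1.12 to -0.50 for Dlst, -0.012 to 0.33 for Sucla2, -0.033 to 0.093 for Fh1 and -0.20 to 0.011 for Mdh2. The log2 ratio ran from -0.096 to 0.0998 for Idh3a to Idh3b, -0.078 to 0.37 for Mdh2 to Mdh1 and -0.16 to 0.14 for Idh2 to Idh3a. The median ratio put Sucla2 at -0.019 and Fh1 at -0.11. Rescaling without the mitochondrial DNA put Cs at 0.069, Idh2 at 0.034, Idh3a at 0.053, Idh3b at 0.0535 and Ogdh at 0.046. Without both rFGF4 mouse 1 and vehicle mouse 5, added after seeing the data, Idh2 was at 0.075, Idh3b at 0.067 and Ogdh at 0.035, 4 of the 9 were below 0 and 1 passed, as did 273 genes in all. In the same setting the log2 ratio was -0.15 for Idh3a to Idh3b, 0.093 for Idh2 to Idh1 (-0.41 with all mice), -0.155 for Mdh2 to Mdh1 and 0.16 for Idh2 to Idh3a. The cause was not tested.

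The replicate block for the 3 shared mouse numbers gave Cs 0.021, Idh2 0.25, Idh3a 0.063, Idh3b 0.22, Ogdh 0.18 and Mdh2 0.030, with 1 of the 9 below 0 (Dlst, -0.32) and 1 below the median of all tested genes, 262 genes past the threshold and 0 of the 9. In the block Pdk4, at 1.33, did not pass the threshold and Pck1, at 1.18, did. Deviations of same-numbered mice correlated at -0.23, -0.16 and -0.39, inside the range of -0.56 to 0.57 of differently numbered mice. These values cannot tell whether the numbers pair the samples. Mice whose number only 1 group has add nothing to the blocked estimate.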
